A study of Mus musculus with 24 samples.

Results

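RNA was sequenced from regrowing mouse digit tips, and the libraries taken 14 days after distal amputation were set against those taken 12 days after it. The comparison uses 8 of the series' 24 libraries, 4 labelled distal at 14 days and 4 labelled distal at 12 days, chosen by their labels alone, and all 15055 genes of the deposited table. All mice were C57BL/6, an inbred strain, 10 to 12 weeks old, and no gene was altered and no drug given per the labels. Each library holds total RNA, depleted of ribosomal RNA, from a whole hind limb digit tip with its bone, cartilage, marrow, dermis and epidermis. A distal cut is labelled regenerating and a proximal cut non-regenerating. Libraries from proximal amputation at 14 and 12 days, 4 of each, entered only to test whether a change differed between the cuts, and the 21 day libraries only as levels. Whether each library came from its own mouse is not stated in the labels, and the p-values therefore describe variation among libraries only, which may in part be technical.

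After loss of the distal part of its last segment, a mouse digit tip is known to close the wound with epidermis and resorb part of the bone stump. It is also known to gather a blastema, a mound of dividing connective tissue cells, under the new epidermis. Blastema cells then lay down matrix and form new bone directly, without a full cartilage model, while the nail organ regrows above. Transcription factors of the limb bud, such as the Msx, Prrx and distal Hox genes, are known to be active in connective tissue cells of the digit.

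Markers of bone, cartilage and epidermis were present in the 8 libraries, a weak check since it covers only genes kept in the table. Every measured osteoblast, cartilage and epidermal marker had a value above 0 in each of them, with Krt14, a keratin of the basal epidermis, at 87291 to 131126 at 14 days and 93644 to 139103 at 12 days. Of the lymphocyte markers 2 of 19 were among the measured genes, of skeletal muscle 4 of 12, of adipocytes 4 of 12 and of neutrophils 7 of 16, and the absent markers were not analysed here. Table totals of the compared libraries ran from 16133162 to 17526152, but the values had been normalised and rounded before deposit and the depth behind them is unknown. A first principal component with 41.8% of the variance separated the groups, with distal 14 day libraries at 17.2 to 28.9 and distal 12 day libraries at -35.1 to -17.2. Distal 12 day replicate 1 lay lowest on it and was also lowest for bone genes such as Bglap and Phex. For Col1a1 it lay at 107915, close to distal 12 day replicate 4 at 116563. Distal 14 day replicate 4 stood apart for genes of the outer epidermis. In these bulk samples fewer cells of a type and less RNA per cell cannot be told apart.

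Over all genes, 2915 of 15055 (19.4%) were called at a Benjamini-Hochberg adjusted p under 0.05 by limma on log2(value + 1). Of all genes 11.2% (1693) were higher at 14 days and 8.12% (1222) were lower. Changes past 2-fold numbered 266 upward and 140 downward, and the median log2 change of all genes was 0.01. Gene lists and their members were chosen with earlier results of these data known, so their counts, here and below, describe and test no enrichment. Set against those shares, the fibrous matrix list had 21 of 22 members called higher, limb patterning 13 of 23, osteoblasts 9 of 16 and cartilage 6 of 14. Called lower were 8 of 18 members of the basal and suprabasal epidermis list, 7 of 18 of the cornified envelope and 8 of 20 of proliferation. The cornified count was 1 without distal 14 day replicate 3 and the proliferation count 1 without distal 12 day replicate 3. Values did not overlap between the groups for 20.7% of genes.

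The 12 largest non-overlapping rises among well expressed genes were of several kinds, bone and cartilage genes among them. Values without overlap were a condition of entry, so the lack of overlap in these genes is no further support. Nell2, a secreted protein with EGF-like repeats, had 223, 71, 53 and 70 at 14 days, against 3, 18, 15 and 5 at 12 days (log2 change 3.26 ± 0.60, adjusted p = 0.000672). Replicate 1 stood high at 14 days, and the other 3 libraries of its group were still above every 12 day value. Fam180a, a secreted protein of unknown role, had 78, 88, 95 and 51 at 14 days, against 15, 16, 18 and 12 at 12 days (log2 change 2.26 ± 0.31, adjusted p = 4.4e-05), with no overlap. C1qtnf3, which encodes cartducin, a secreted protein of growing cartilage, had 638, 928, 787 and 924 at 14 days, against 255, 180, 255 and 87 at 12 days (log2 change 2.17 ± 0.32, adjusted p = 9.68e-05). Bglap, Bglap2, Col9a2, Frzb and Omd belonged to the same 12 and are described with their groups. Slc26a7, an anion exchanger, changed by 2.61 ± 0.61 on the log2 scale (adjusted p = 0.00440), Galnt9, a glycosyltransferase, by 2.18 ± 0.32 on the log2 scale (adjusted p = 8.94e-05), and Cacna1h, a T-type calcium channel, by 2.02 ± 0.34 on the log2 scale (adjusted p = 0.000302). Col22a1, a collagen of tissue junctions, changed by 2.15 ± 0.71 on the log2 scale (adjusted p = 0.0373), and its call was lost in 6 of the 8 fits that left out 1 library, with adjusted p-values up to 0.129 and changes from 1.03 to 2.73. By adjusted p the leading genes were Bgn, Mn1, Ttc28, Slc7a2, Scarf2 and Kirrel, all higher at 14 days. Scarf2, a scavenger receptor family member, had 2586, 2911, 2650 and 2835 at 14 days, against 1027, 1317, 1380 and 1058 at 12 days (log2 change 1.21 ± 0.12, adjusted p = 1.94e-06), and its 14 day libraries lay far above the 12 day ones.

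Among the 12 largest falls were Il1b, Il11, Cxcl1, Nlrp3 and Slfn4 of inflammation, and Hrnr and Krt2 of the upper epidermis. The falls were drawn under the same conditions as the rises, so their values could not overlap. Cyp4a29, a member of the cytochrome P450 family of fatty acid hydroxylases, had 2, 11, 7 and 20 at 14 days, against 117, 60, 78 and 57 at 12 days (log2 change -3.10 ± 0.47, adjusted p = 0.000125). Every 14 day value lay at 20 or under. Serpinb6c, a protease inhibitor, had 5, 8, 17 and 15 at 14 days, against 33, 52, 71 and 70 at 12 days (log2 change -2.30 ± 0.43, adjusted p = 0.000856), and Sec14l4, a lipid-binding protein, changed by -1.99 ± 0.41 on the log2 scale (adjusted p = 0.00172). Alox12e, an epidermal lipoxygenase, changed by -2.41 ± 0.80 on the log2 scale (adjusted p = 0.0375), but its call was lost in 6 of the 8 fits that left out 1 library, with adjusted p-values up to 0.127.

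**Figure D1:**
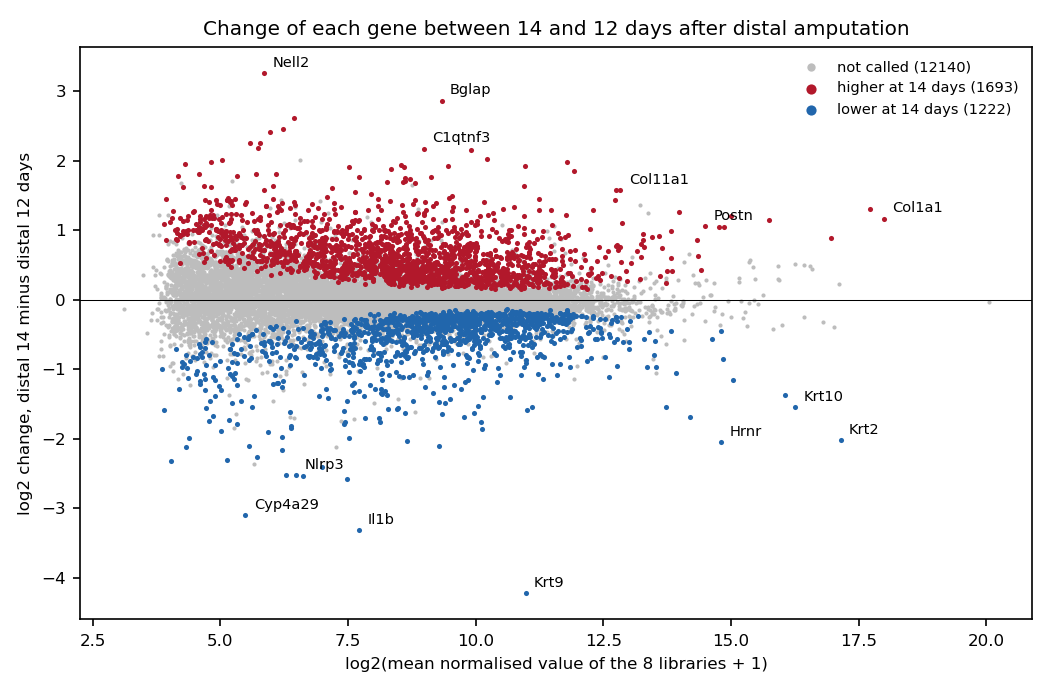
Each point is a gene, with the log2 change from the limma fit (distal 14 minus distal 12 days) on the vertical axis and the log2 mean of its normalised value over the 8 libraries on the horizontal axis; called genes are coloured. Bglap (2.87) and Nell2 (3.26) lie at the top, and Il1b (-3.32), Cyp4a29 (-3.10) and Krt9 (-4.22, labelled after its values were seen) at the bottom, while Krt2 and Krt10 fell at levels far above most genes.

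Genes of fibrous connective tissue rose almost as a block. Of the 22 listed matrix and myofibroblast genes 21 were called higher and 0 lower, against the 11.2% called higher over all genes, and their median log2 change was 0.88. Summed over the list, the 14 day libraries held 391650 to 569993 and the 12 day libraries 245022 to 271434. Postn, which encodes periostin, a matrix protein of healing and regrowing tissue, stood at 26565, 39336, 28510 and 30496 at 14 days, against 18102, 14455, 16254 and 11269 at 12 days. Every 14 day library lay above every 12 day library (log2 change 1.06 ± 0.23, adjusted p = 0.00296). Col5a2, a chain of type V collagen that helps set the width of collagen fibrils, had 39257, 52978, 49447 and 41252 at 14 days, against 18541, 21235, 21083 and 18002 at 12 days (log2 change 1.21 ± 0.12, adjusted p = 2.77e-06). Those groups did not overlap, and within each of them the libraries lay close together. Thrombospondins, secreted proteins that bind matrix and growth factors, rose too. Thbs1 had 11705, 13040, 10222 and 6699 at 14 days, against 3338, 4071, 2955 and 3302 at 12 days (log2 change 1.57 ± 0.20, adjusted p = 1.78e-05). Thbs2 changed by 1.30 ± 0.15 on the log2 scale (adjusted p = 9.31e-06) and Tgfb3, a growth factor that drives matrix production, by 1.29 ± 0.15 on the log2 scale (adjusted p = 8.8e-06). Ctgf, a matricellular protein induced by mechanical tension and TGF-beta, had 1915, 2508, 1938 and 2085 at 14 days, against 910, 804, 717 and 996 at 12 days (log2 change 1.30 ± 0.19, adjusted p = 6.1e-05), and the lowest 14 day value was near 2 times the highest 12 day value. Lrrc15, a membrane protein of matrix-rich tissue, was the 1 member not called, at 54090, 71096, 31181 and 51635 at 14 days, against 32909, 42939, 71210 and 51895 at 12 days, with replicates scattered over each other's range. Without any 1 of the 8 libraries, 15 to 19 members were called.

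Matrix proteases moved in both directions. Among 18 measured proteases and their inhibitors 5 rose and 3 fell, against 11.2% higher and 8.12% lower over all genes, and the median log2 change of the list was 0.01. Mmp2, a gelatinase, had 11115, 14988, 12578 and 12762 at 14 days, against 7707, 7276, 7463 and 5815 at 12 days (log2 change 0.86 ± 0.13, adjusted p = 9.1e-05). Its activator Mmp14 changed by 0.79 ± 0.12 on the log2 scale (adjusted p = 0.000136), and Timp2, an inhibitor that also takes part in that activation, by 0.76 ± 0.09 on the log2 scale (adjusted p = 1.53e-05); neither gene's groups overlapped. Plau, the urokinase that activates plasminogen, fell, with 580, 422, 545 and 520 at 14 days, against 1062, 741, 746 and 919 at 12 days (log2 change -0.74 ± 0.17, adjusted p = 0.00402). Mmp3 and Adamts1 were called lower as well, at log2 changes of -1.69 ± 0.57 and -0.69 ± 0.22, but the count of fallen members was 1 without distal 12 day replicate 1, without distal 14 day replicate 1 and without distal 14 day replicate 3. Mmp12, a macrophage elastase, was not called, although its values of 16, 16, 17 and 11 at 14 days, against 111, 57, 61 and 106 at 12 days did not overlap (log2 change -2.36 ± 0.84, adjusted p = 0.0511).

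Several bone-forming genes rose, with a wide scatter among the 12 day libraries. Of 16 measured osteoblast and bone matrix genes 9 were called higher and 0 lower, and the median log2 change was 1.20. Bglap encodes osteocalcin, a vitamin K-dependent protein that mature osteoblasts secrete into mineral. Its values were 1740, 1432, 530 and 598 at 14 days, against 20, 452, 270 and 108 at 12 days, a rise of 7.29-fold on the fitted log2(value + 1) scale (log2 change 2.87 ± 0.85, adjusted p = 0.0202). All 14 day values lay above all 12 day values, as entry among the largest rises required. Replicate 1 at 12 days, at 20, lay far under the others. Without that library the change was 1.99 with an adjusted p of 0.0944, without distal 14 day replicate 1 it was 2.57 with 0.0599, and without distal 14 day replicate 2 it was 2.67 with 0.0580. Bglap2, a near-identical neighbouring copy whose reads may be shared with Bglap, had 108, 122, 83 and 77 at 14 days, against 3, 57, 28 and 15 at 12 days (log2 change 2.42 ± 0.66, adjusted p = 0.0132). Its call was lost without distal 12 day replicate 1, at a change of 1.69 and an adjusted p of 0.0610.

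Because Bglap rose most among the bone genes, the 250 bases before its start in RefSeq (build GRCm38.p6, minus strand, chr3:88384467-88384716) are shown, read 5′ to 3′ along the gene. Capitals mark matches to 5 motifs searched on both strands, namely the Runx core TGTGGT, the TATA box TATAAA, the CCAAT box, the cell cycle homology core TTTGAA and the 10-base NF-kB consensus. They were chosen with the results known.
Bglap: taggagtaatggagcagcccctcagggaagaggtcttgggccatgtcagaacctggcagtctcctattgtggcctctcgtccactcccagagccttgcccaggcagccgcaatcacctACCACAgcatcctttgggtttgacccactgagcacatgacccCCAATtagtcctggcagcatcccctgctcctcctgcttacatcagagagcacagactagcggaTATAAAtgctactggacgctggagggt
The capitals mark, from left to right, the Runx core TGTGGT on the opposite strand, 132 bases before the start, a CCAAT box 90 bases before it and a TATA box (TATAAA) 27 bases before it. Over all 32851 RefSeq promoter windows of 250 bases, read on both strands, 14.0% hold TGTGGT, 12.4% hold TATAAA and 33.8% hold CCAAT, so none of the 3 is rare. No binding was measured here.

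Other bone genes were less scattered than Bglap. Col1a1, a chain of type I collagen and the main protein of bone and dermis, stood at 243732, 497036, 388656 and 308280 at 14 days, against 107915, 234113, 194533 and 116563 at 12 days (log2 change 1.17 ± 0.30, adjusted p = 0.00808), though in the fit of these 8 libraries alone its adjusted p was 0.0611. In values per kilobase of gene model, Col1a1 averaged 54766 at 14 days and 24879 at 12 days, far above Bglap, which averaged 1739 at 14 days and 344 at 12 days. Sparc, which encodes osteonectin, a collagen-binding matrix protein, had 60825, 87850, 83318 and 68347 at 14 days, against 24406, 44741, 44666 and 25788 at 12 days (log2 change 1.15 ± 0.21, adjusted p = 0.000547). Runx2, the transcription factor that commits cells to bone, had 928, 1365, 1123 and 874 at 14 days, against 351, 687, 753 and 548 at 12 days (log2 change 0.91 ± 0.25, adjusted p = 0.0138). In each of these 3 genes the lowest 14 day library was above the highest 12 day library. Sp7, which acts after Runx2, was not called, at 502, 980, 870 and 842 at 14 days, against 169, 620, 740 and 419 at 12 days (log2 change 0.87 ± 0.48, adjusted p = 0.216). Alpl and Ibsp, both tied to mineral formation, missed the threshold as well, with log2 changes of 1.06 ± 0.45 for Alpl and 1.25 ± 0.55 for Ibsp, and their groups overlapped. Without distal 12 day replicate 1 the list had 4 called members, and without distal 14 day replicate 2 it had 5.

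Osteocytes are bone cells buried in their own matrix. Of 7 measured osteocyte genes 1 was called higher, near the 11.2% called higher over all genes. It was Phex, an endopeptidase that controls phosphate, with 530, 671, 504 and 468 at 14 days, against 28, 471, 311 and 154 at 12 days (log2 change 1.75 ± 0.55, adjusted p = 0.0289). Distal 12 day replicate 1 was again the low library, and the call was lost in 5 of the 8 fits that left out 1 library, with adjusted p-values up to 0.109. Dmp1, a mineral-binding matrix protein, had 356, 913, 650 and 414 at 14 days, against 26, 478, 450 and 153 at 12 days and was not called (log2 change 1.65 ± 0.71, adjusted p = 0.106).

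Genes of osteoclasts, the cells that resorb bone, did not pass the test. Of 13 measured members limma called 0, and 0 had an unadjusted p under 0.05, while 11 of the 13 fitted changes were negative (median -0.57). Acp5, the tartrate-resistant acid phosphatase, stood at 1251, 3724, 2669 and 3422 at 14 days, against 6857, 2793, 4377 and 7202 at 12 days (log2 change -0.96 ± 0.48, adjusted p = 0.173). Ctsk, the protease that cuts bone collagen, had 4797, 11008, 6446 and 8660 at 14 days, against 22397, 5700, 12532 and 19276 at 12 days (log2 change -0.85 ± 0.44, adjusted p = 0.189). In both genes distal 12 day replicates 1 and 4 were highest and replicate 2 lay among the 14 day values, so the groups overlapped.

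**Figure D2:**
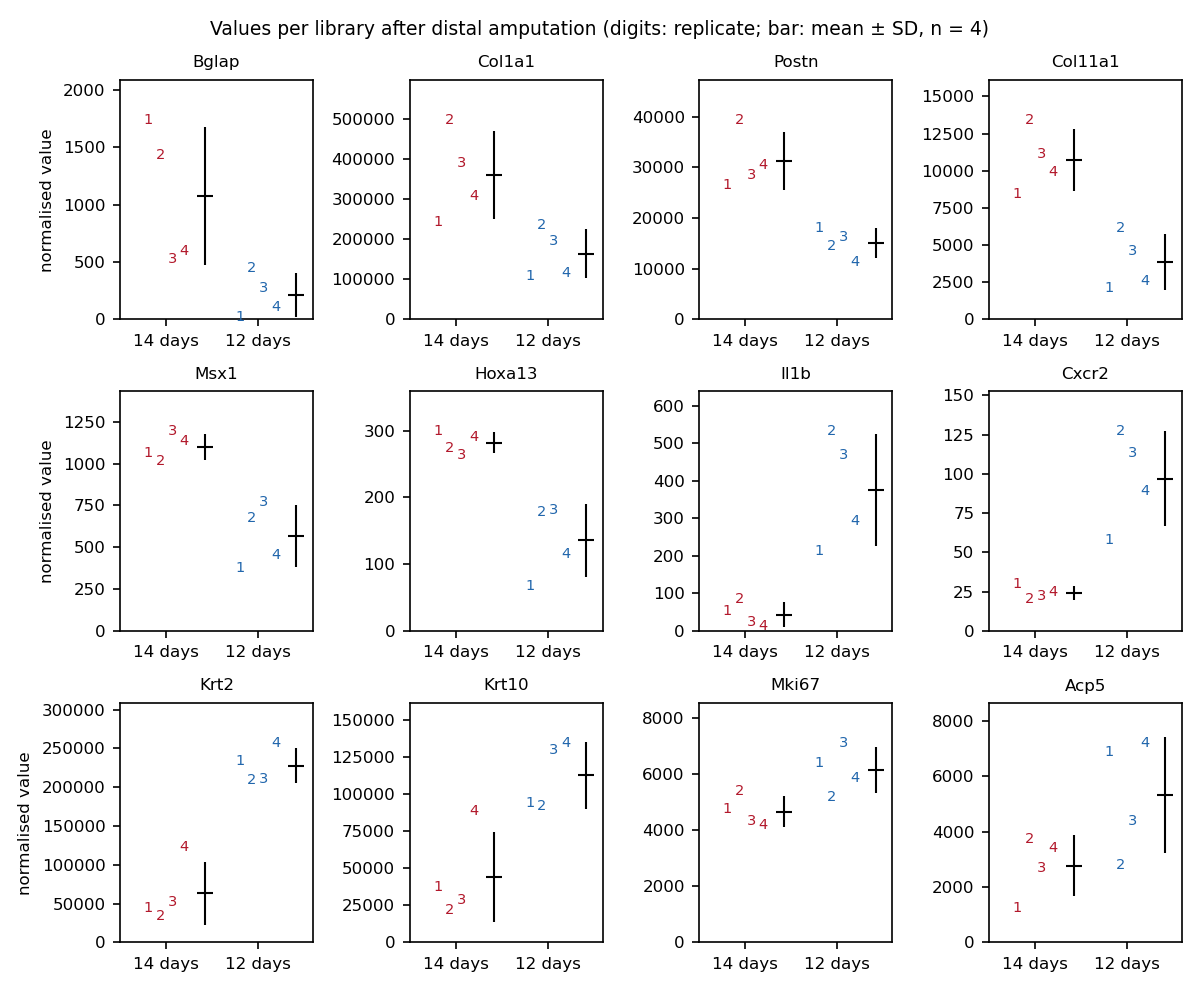
Normalised values of 12 genes in each library, with digits for the replicate number in the 14 day (left) and 12 day (right) distal groups and a bar for mean ± SD (n = 4). Postn, Msx1, Hoxa13, Il1b, Cxcr2 and Krt2 do not overlap between the groups, Bglap does not overlap either but spreads from 530 to 1740 at 14 days, and Mki67 and Acp5 overlap.

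Several cartilage genes rose as well. Of 14 measured members 6 were called higher and 0 lower (median 1.36), and all 14 had a positive change. Col11a1, a fibril collagen chain of cartilage that other connective tissue also makes, had 8443, 13421, 11128 and 9898 at 14 days, against 2128, 6181, 4630 and 2599 at 12 days (log2 change 1.57 ± 0.27, adjusted p = 0.000391). Its groups did not overlap. Col9a2, a chain of the collagen that coats cartilage fibrils, had 92, 84, 119 and 63 at 14 days, against 10, 20, 19 and 24 at 12 days (log2 change 2.26 ± 0.51, adjusted p = 0.00369). Comp, an oligomeric matrix protein of cartilage and tendon, had 1911, 1327, 1709 and 2298 at 14 days, against 682, 1079, 808 and 702 at 12 days (log2 change 1.14 ± 0.28, adjusted p = 0.00686). Hapln1, the link protein that ties aggrecan to hyaluronan, changed by 1.69 ± 0.44 on the log2 scale (adjusted p = 0.00929). Acan, aggrecan itself, had 1709, 4460, 4439 and 3251 at 14 days, against 1207, 2085, 1344 and 912 at 12 days (log2 change 1.29 ± 0.43, adjusted p = 0.0366), and its call was lost in 6 of the 8 fits that left out 1 library, with adjusted p-values up to 0.109. Sox9, the master regulator of chondrocytes, stood at 1140, 1136, 1489 and 1346 at 14 days, against 1216, 1114, 1101 and 1135 at 12 days and was not called (log2 change 0.15 ± 0.24, adjusted p = 0.706). Col2a1, the main collagen of cartilage, was low in all 8 libraries, at 218, 38, 57 and 127 at 14 days, against 24, 25, 48 and 36 at 12 days, and was not called either (log2 change 1.44 ± 0.74, adjusted p = 0.183). With distal 12 day replicate 1 and distal 14 day replicate 4 both left out, 3 members were called.

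Tendon genes include small leucine-rich proteoglycans, which bind collagen fibrils. Of 16 tendon and ligament genes 6 rose and 0 fell (median 0.66), against 11.2% called higher over all genes. Scx, the transcription factor of tendon cells, had 408, 373, 387 and 342 at 14 days, against 284, 284, 224 and 256 at 12 days (log2 change 0.53 ± 0.10, adjusted p = 0.00102). Bgn, which encodes biglycan, had 13944, 15025, 14311 and 14948 at 14 days, against 8162, 8585, 7977 and 6445 at 12 days and one of the smallest adjusted p-values of the comparison (log2 change 0.91 ± 0.09, adjusted p = 1.44e-06). Both genes kept their groups apart with small spreads. Ogn, which encodes osteoglycin, had 1605, 1204, 769 and 865 at 14 days, against 188, 462, 320 and 224 at 12 days (log2 change 1.92 ± 0.26, adjusted p = 3.36e-05). Omd, osteomodulin, a neighbour of Ogn on chromosome 13, had 1873, 2318, 1543 and 1760 at 14 days, against 242, 804, 589 and 366 at 12 days (log2 change 2.03 ± 0.30, adjusted p = 8.16e-05). Each of these 2 proteoglycan genes was lowest in distal 12 day replicate 1. Mkx, a homeobox factor of tendon, changed by 1.06 ± 0.23 on the log2 scale (adjusted p = 0.00300), and Tnmd, a membrane protein of mature tendon, had 214, 100, 170 and 267 at 14 days, against 61, 113, 125 and 93 at 12 days and was not called (log2 change 0.89 ± 0.37, adjusted p = 0.0966).

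**Figure D3:**
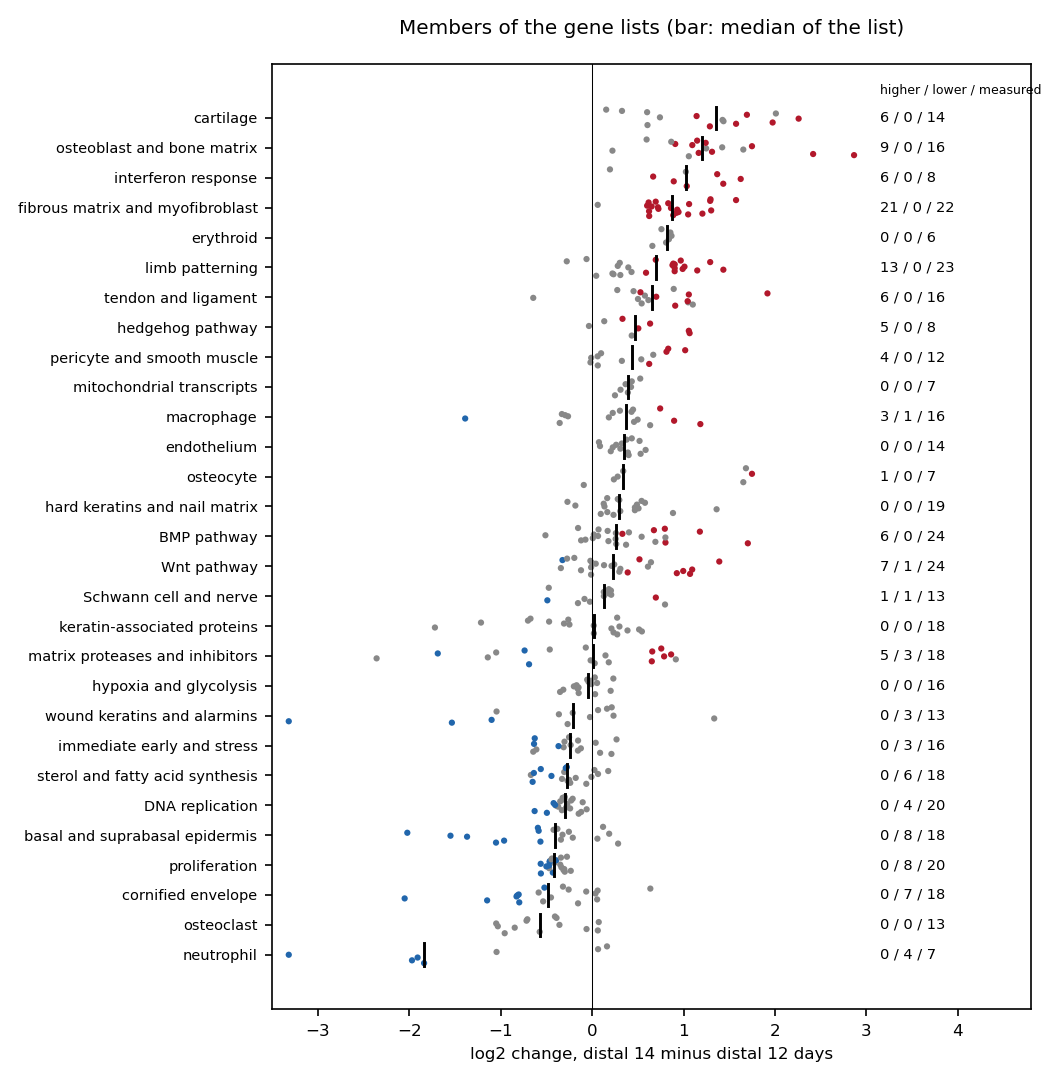
Each point is a gene of a list with at least 5 measured members, placed at its log2 change (distal 14 minus distal 12 days); red points were called higher, blue points lower, grey points were not called, and the black bar is the list's median. The text at the right gives the numbers called higher, called lower and measured, such as 21, 0 and 22 for fibrous matrix and 0, 8 and 20 for proliferation.

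Limb patterning factors were among the genes that rose. Of 23 measured genes 13 were called higher and 0 lower (median 0.70), and leaving out any 1 library left 12 or 13. Msx1, a homeobox gene needed for digit tip regrowth in the fetal mouse, had 1062, 1017, 1193 and 1134 at 14 days, against 375, 677, 768 and 453 at 12 days (log2 change 1.01 ± 0.23, adjusted p = 0.00431). Prrx1 and Prrx2 mark limb connective tissue; Prrx1 had 3344, 3460, 3190 and 3199 at 14 days, against 1472, 1917, 1926 and 1770 at 12 days (log2 change 0.90 ± 0.10, adjusted p = 4.05e-06). Prrx2 had 862, 784, 748 and 750 at 14 days, against 358, 448, 539 and 372 at 12 days (log2 change 0.89 ± 0.12, adjusted p = 2.42e-05). The 14 day libraries of Prrx1 lay within a narrow band, far from the 12 day ones. Hoxa13, which specifies the most distal part of the limb, had 299, 274, 264 and 291 at 14 days, against 68, 178, 181 and 116 at 12 days (log2 change 1.15 ± 0.21, adjusted p = 0.000634). Hoxd13, its partner in the digits, had 478, 341, 323 and 437 at 14 days, against 130, 220, 211 and 242 at 12 days (log2 change 0.99 ± 0.23, adjusted p = 0.00407). Their groups did not overlap, and distal 12 day replicate 1 was lowest for both. Tbx4, a hind limb factor, changed by 0.97 ± 0.19 on the log2 scale (adjusted p = 0.00132) and Tbx2, a T-box repressor of the limb margin, by 1.29 ± 0.19 on the log2 scale (adjusted p = 6.58e-05). Msx2 was not called, with 711, 694, 879 and 1371 at 14 days, against 638, 658, 1023 and 635 at 12 days, nor was Tbx3, with 167, 279, 222 and 337 at 14 days, against 343, 241, 246 and 371 at 12 days, and in both genes the groups overlapped.

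Hedgehog signalling is read by the receptor Ptch1, which is also a target of the pathway, and carried by the Gli factors. Of 8 measured members 5 rose, against 11.2% called higher over all genes, and 0 fell. Every fit without 1 library called the same number. Ptch1 had 957, 1210, 1239 and 1050 at 14 days, against 508, 812, 829 and 757 at 12 days (log2 change 0.63 ± 0.14, adjusted p = 0.00256). Gli1, another target, had 139, 153, 131 and 159 at 14 days, against 40, 64, 124 and 70 at 12 days (log2 change 1.07 ± 0.26, adjusted p = 0.00586), and distal 12 day replicate 3 lay close under the 14 day libraries. Gli2 stood at 177, 238, 233 and 202 at 14 days, against 106, 91, 103 and 104 at 12 days (log2 change 1.06 ± 0.11, adjusted p = 4.05e-06). Smo, the signal transducer, changed by 0.33 ± 0.06 on the log2 scale (adjusted p = 0.000564). Dhh, the measured ligand, had 71, 30, 24 and 39 at 14 days, against 15, 41, 26 and 36 at 12 days, with overlapping groups (log2 change 0.43 ± 0.37, adjusted p = 0.450).

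In the Wnt pathway the risers were mostly secreted ligands, feedback genes and inhibitors. Of 24 measured members 7 were called higher and 1 lower (median 0.23), against 11.2% higher and 8.12% lower over all genes. Wnt16, a ligand that acts on cortical bone, had 267, 230, 167 and 188 at 14 days, against 67, 95, 119 and 52 at 12 days (log2 change 1.39 ± 0.25, adjusted p = 0.000544). Wnt5a, a ligand of the planar polarity branch, had 1851, 1973, 1859 and 1795 at 14 days, against 1278, 1455, 1266 and 1230 at 12 days (log2 change 0.52 ± 0.13, adjusted p = 0.00590). Neither ligand's groups overlapped. Nkd1, a feedback inhibitor, changed by 1.09 ± 0.17 on the log2 scale (adjusted p = 0.000149), Dkk2 by 1.07 ± 0.26 on the log2 scale (adjusted p = 0.00597), and Dkk3 by 0.93 ± 0.13 on the log2 scale (adjusted p = 6.58e-05). Frzb, a secreted Wnt antagonist of cartilage that is outside the list but among the 12 largest rises, had 93, 154, 143 and 98 at 14 days, against 7, 34, 40 and 19 at 12 days (log2 change 2.46 ± 0.44, adjusted p = 0.000536). Axin2, the usual target of canonical Wnt signalling, had 387, 283, 544 and 424 at 14 days, against 477, 476, 392 and 293 at 12 days and was not called (log2 change -0.01 ± 0.18, adjusted p = 0.975). Lef1, a nuclear factor of the pathway, ranged widely, with 136, 166, 265 and 349 at 14 days, against 91, 306, 326 and 100 at 12 days (log2 change 0.30 ± 0.44, adjusted p = 0.685). Wnt4, the member called lower, changed by -0.32 ± 0.10 on the log2 scale (adjusted p = 0.0314), and its call was lost in 6 of the 8 fits without 1 library.

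Among 24 measured BMP genes 6 rose and 0 fell (median 0.26), against 11.2% called higher over all genes. Bmp3, a ligand of bone that opposes the osteogenic BMPs, had 521, 658, 702 and 430 at 14 days, against 60, 304, 310 and 159 at 12 days (log2 change 1.70 ± 0.38, adjusted p = 0.00314), with the lowest value in distal 12 day replicate 1. Bmp4, a ligand of the regrowing tip and nail region, had 349, 262, 250 and 296 at 14 days, against 145, 168, 202 and 147 at 12 days (log2 change 0.80 ± 0.13, adjusted p = 0.000205). Of the inhibitors, Nog and Smad6 rose. Nog, the secreted antagonist noggin, had 149, 115, 125 and 123 at 14 days, against 46, 86, 54 and 45 at 12 days (log2 change 1.18 ± 0.18, adjusted p = 0.000134). Smad6, an intracellular inhibitor, had 973, 704, 939 and 1025 at 14 days, against 513, 602, 614 and 532 at 12 days (log2 change 0.68 ± 0.10, adjusted p = 0.000110). All 4 genes had groups that did not overlap. Id1, a direct BMP target, had 1323, 1118, 1522 and 1712 at 14 days, against 1437, 1454, 1660 and 1054 at 12 days and was not called (log2 change 0.02 ± 0.18, adjusted p = 0.957), while the call of Id2, at 0.33 ± 0.11, was lost with both other scalings and in 6 of the 8 fits without 1 library.

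Il1b, Cxcl1, Nlrp3 and Il11 were named as members of the 12 largest falls and stand for no list of cytokines. Il1b, the interleukin that starts fever and neutrophil recruitment, had 53, 86, 23 and 13 at 14 days, against 212, 532, 468 and 293 at 12 days (log2 change -3.32 ± 0.59, adjusted p = 0.000513). Cxcl1, a chemokine that draws neutrophils, had 23, 11, 12 and 42 at 14 days, against 105, 60, 257 and 106 at 12 days (log2 change -2.53 ± 0.48, adjusted p = 0.000913). Nlrp3, the inflammasome sensor that leads to cleavage of interleukin 1 beta, had 26, 47, 14 and 19 at 14 days, against 149, 90, 232 and 134 at 12 days (log2 change -2.53 ± 0.37, adjusted p = 7.23e-05). For each of the 3 genes the highest 14 day value lay under the lowest 12 day value, as entry among the largest falls required. Il11, a cytokine of the interleukin 6 family, had 13, 31, 21 and 41 at 14 days, against 295, 63, 167 and 147 at 12 days (log2 change -2.54 ± 0.36, adjusted p = 6.1e-05). Cd14, the co-receptor for bacterial lipopolysaccharide, had 131, 149, 107 and 111 at 14 days, against 309, 315, 356 and 321 at 12 days (log2 change -1.39 ± 0.15, adjusted p = 5.44e-06). Neither overlapped, which for Il11 the same choice required. Il11 ranged from 63 to 295 at 12 days, whereas the 12 day values of Cd14 lay close together. Among 16 immediate early and stress genes 3 fell, Socs3, a feedback inhibitor of cytokine signalling, by 0.63 on the log2 scale, Ier3 and Hspa1b, and 0 rose (median -0.24), against 8.12% called lower over all genes.

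Among the named cytokine genes that fell, Il1b (minus strand, chr2:129371140-129371389) and Cxcl1 (plus strand, chr5:90890995-90891244) were chosen with the results and their motif matches known. The window of Il11, which also fell, is not shown. Il1b and Cxcl1 are shown by the 250 bases before the start that the promoter table uses. For Il1b that start lies inside the RefSeq gene span, so 25 bases of its window overlap the span; none of the other windows overlaps its gene.
Il1b: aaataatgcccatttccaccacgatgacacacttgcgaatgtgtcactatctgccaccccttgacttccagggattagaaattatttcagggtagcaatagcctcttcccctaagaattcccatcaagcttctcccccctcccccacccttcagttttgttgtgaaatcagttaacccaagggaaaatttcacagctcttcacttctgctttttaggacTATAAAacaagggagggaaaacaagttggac
Cxcl1: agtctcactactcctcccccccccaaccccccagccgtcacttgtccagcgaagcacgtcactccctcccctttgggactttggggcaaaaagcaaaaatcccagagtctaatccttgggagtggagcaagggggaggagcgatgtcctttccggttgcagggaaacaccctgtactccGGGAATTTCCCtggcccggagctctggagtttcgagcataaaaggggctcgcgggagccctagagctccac
In Il1b the capitals mark TATAAA, 31 bases before the start, and in Cxcl1 2 overlapping matches to the NF-kB consensus, 1 on each strand, 71 and 70 bases before it. Of all windows 7.25% hold that consensus on either strand. The window of Il1b holds no match to it, which says nothing of binding elsewhere.

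Genes for 3 neutrophil receptors fell, while the alarmins S100a8 and S100a9 scattered. Of 7 measured genes 4 were called lower, Il1b among them, and 0 higher, against 8.12% called lower over all genes; the list's sums of 261 to 14191 at 14 days and 1733 to 3571 at 12 days were mostly S100a8 and S100a9. Cxcr2, the receptor for Cxcl1, had 30, 20, 22 and 25 at 14 days, against 58, 127, 113 and 89 at 12 days (log2 change -1.91 ± 0.25, adjusted p = 2.93e-05). Clec4d, a myeloid lectin, had 42, 70, 18 and 26 at 14 days, against 130, 106, 150 and 120 at 12 days (log2 change -1.84 ± 0.38, adjusted p = 0.00191). Csf3r, the receptor for the granulocyte growth factor, had 32, 34, 21 and 28 at 14 days, against 84, 114, 170 and 103 at 12 days (log2 change -1.97 ± 0.64, adjusted p = 0.0343). None of the 3 overlapped, although the call of Csf3r was lost in 7 of the 8 fits without 1 library, with adjusted p-values up to 0.0857. S100a8, an alarmin of neutrophils and stressed keratinocytes, had 688, 4546, 1044 and 90 at 14 days, against 553, 696, 1069 and 601 at 12 days and was not called (log2 change 0.07 ± 0.95, adjusted p = 0.973). Distal 14 day replicate 2 was the high library, and the same library was highest for S100a9, at 9378. Of 16 macrophage markers 3 were called higher and 1, Cd14, lower, near the shares over all genes (11.2% higher and 8.12% lower). Csf1r, the receptor that defines the lineage, had 949, 1202, 910 and 1196 at 14 days, against 1732, 841, 1112 and 1738 at 12 days and was not called (log2 change -0.30 ± 0.26, adjusted p = 0.459). Aif1, C1qb and Trem2 made up the 3, and that count was 0 without distal 12 day replicate 1 or without distal 14 day replicate 1, and 1 without distal 12 day replicate 4 or without distal 14 day replicate 4.

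Most measured interferon-induced genes rose. Of 8 measured members 6 were called higher and 0 lower (median 1.03), against 11.2% called higher over all genes. Bst2, which tethers virus particles to the membrane, had 215, 92, 88 and 111 at 14 days, against 58, 51, 55 and 65 at 12 days (log2 change 1.04 ± 0.23, adjusted p = 0.00338). Ifit3, which binds foreign RNA with its relatives, had 50, 19, 20 and 82 at 14 days, against 10, 8, 8 and 21 at 12 days (log2 change 1.63 ± 0.41, adjusted p = 0.00782). Distal 14 day replicates 1 and 4 were the high libraries for Ifit3, and without 1 of them the list had 2 called members each time, and 3 without distal 12 day replicate 1. Oas1f, an oligoadenylate synthetase relative, was among the largest falls instead, with 18, 2, 22 and 54 at 14 days, against 61, 83, 110 and 65 at 12 days (log2 change -2.26 ± 0.69, adjusted p = 0.0245), though its call was lost in 3 of the 8 fits without 1 library, and Slfn4, a Schlafen gene of myeloid cells, fell by 2.16 on the log2 scale.

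Several keratinocyte genes of the upper layers fell, and the named basal ones did not pass the test. Of 18 basal and suprabasal genes 8 fell and 0 rose (median -0.40). Krt2, a keratin of the upper spinous and granular layers, had 44673, 34120, 51857 and 123026 at 14 days, against 233344, 209943, 209996 and 257130 at 12 days (log2 change -2.02 ± 0.41, adjusted p = 0.00157). Krt10, the keratin that keratinocytes switch on when they leave the basal layer, had 37522, 21737, 28519 and 88185 at 14 days, against 94091, 91686, 129912 and 134373 at 12 days (log2 change -1.55 ± 0.34, adjusted p = 0.00313). In both genes distal 14 day replicate 4 was the highest of its group and still under every 12 day library. Krt1, the partner of Krt10, changed by -1.37 ± 0.38 on the log2 scale (adjusted p = 0.0148); its value in distal 14 day replicate 4, 76603, lay inside the 12 day range. Desmosomal cadherins of the upper layers fell too, with Dsg1a at 7974, 6921, 8183 and 8385 at 14 days, against 10757, 22765, 13523 and 16506 at 12 days (log2 change -0.96 ± 0.19, adjusted p = 0.00103). Dsc1 changed by -1.05 ± 0.24 on the log2 scale (adjusted p = 0.00412). Basal genes were not called, with Krt5 at a log2 change of -0.25 ± 0.23, Krt14 at -0.32 ± 0.22, the stem cell regulator Trp63 at 0.12 ± 0.16 and the hemidesmosome genes Itga6 at 0.06 ± 0.16 and Col17a1 at 0.28 ± 0.19. Fgfbp1, which releases fibroblast growth factors from matrix and is made by keratinocytes, had 567, 520, 486 and 576 at 14 days, against 1529, 1872, 1273 and 1602 at 12 days (log2 change -1.53 ± 0.26, adjusted p = 0.000379). Il1rn, the antagonist of interleukin 1, changed by -1.10 ± 0.18 on the log2 scale (adjusted p = 0.000206). Both come from the list of wound keratins and alarmins, where 3 of 13 measured genes were called lower, Il1b among them, and 0 higher. Over all genes 8.12% were lower. In that list 5 changes were positive and 8 negative (median -0.21). The wound keratin Krt6a overlapped between the groups, at 56046, 84918, 54351 and 33438 at 14 days, against 60475, 100499, 45863 and 85015 at 12 days, and was not called (log2 change -0.36 ± 0.26, adjusted p = 0.363).

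Among 18 genes of the cornified envelope, the protein shell of dead keratinocytes, 7 fell and 0 rose (median -0.49). Hrnr, hornerin, had 6959, 4757, 10907 and 32921 at 14 days, against 35305, 46385, 50101 and 42735 at 12 days (log2 change -2.05 ± 0.46, adjusted p = 0.00360). Cdsn, the adhesive protein that holds the dead layers together, had 9796, 7980, 5187 and 11280 at 14 days, against 12561, 13266, 16449 and 15209 at 12 days (log2 change -0.80 ± 0.23, adjusted p = 0.0171). Neither overlapped. Flg, filaggrin, had 16673, 10051, 16842 and 51744 at 14 days, against 42568, 40634, 43770 and 46592 at 12 days (log2 change -1.15 ± 0.36, adjusted p = 0.0298), with distal 14 day replicate 4 above every 12 day library, and its call held only without that library among the 8 fits that left out 1. The count of called members was 7 without distal 14 day replicate 4, but 3 without distal 12 day replicate 1, distal 14 day replicate 1 or distal 14 day replicate 2, 2 without distal 12 day replicate 2, 3 or 4, and 1 without distal 14 day replicate 3. Sweat gland genes can enter with skin. Aqp5, the water channel of eccrine sweat glands, had 126, 130, 207 and 611 at 14 days, against 500, 1217, 1080 and 1106 at 12 days (log2 change -2.11 ± 0.46, adjusted p = 0.00289), with replicate 4 of the 14 day group inside the 12 day range. Summed over the 4 measured sweat gland genes the 14 day libraries held 157 to 885 and the 12 day libraries 703 to 1841, and the part of gland content in the epidermal values was not tested.

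Fitted changes of dividing-cell genes were small and negative. All 20 genes of mitosis and proliferation had a negative change (median -0.42), and 8 of them were called lower. Mki67, the Ki-67 antigen of cycling cells, had 4749, 5412, 4314 and 4182 at 14 days, against 6382, 5185, 7112 and 5871 at 12 days (log2 change -0.39 ± 0.13, adjusted p = 0.0415), and its groups overlapped. Its call was lost in 6 of the 8 fits without 1 library, with adjusted p-values up to 0.126. Cdk1, the kinase that starts mitosis, had 610, 584, 552 and 482 at 14 days, against 674, 647, 1034 and 778 at 12 days (log2 change -0.47 ± 0.13, adjusted p = 0.0113). Cdc20, which activates the complex that ends mitosis, had 488, 541, 529 and 473 at 14 days, against 543, 650, 1146 and 655 at 12 days (log2 change -0.50 ± 0.17, adjusted p = 0.0400). Both of these kept apart, but the call of Cdc20 was lost in 6 of those 8 fits, with adjusted p-values up to 0.164. Distal 12 day replicate 3 was highest for all of the 8 called genes, and without it 1 gene was called, Cdk1, whose adjusted p was 0.0519 in the fit of the 8 distal libraries alone, while 4 were called without distal 14 day replicate 1, 3 without distal 14 day replicate 3 and 2 without distal 14 day replicate 4. All 20 replication genes had a negative change (median -0.30), and 4 were called lower, against 8.12% over all genes. Mcm4, a subunit of the replicative helicase, had 706, 746, 613 and 688 at 14 days, against 1153, 844, 880 and 798 at 12 days (log2 change -0.40 ± 0.10, adjusted p = 0.00607), with no overlap. The replication count was 2 without distal 12 day replicate 1 or without distal 14 day replicate 3.

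Cdk1 (minus strand, chr10:69352913-69353162) and Cdc20 (minus strand, chr4:118437344-118437593) were both called lower, though neither call held in every alternative fit. They belong to a class whose promoters are known to pair CCAAT boxes with a cell cycle homology region, so both windows are shown. Windows of the other called proliferation genes are not shown.
Cdk1: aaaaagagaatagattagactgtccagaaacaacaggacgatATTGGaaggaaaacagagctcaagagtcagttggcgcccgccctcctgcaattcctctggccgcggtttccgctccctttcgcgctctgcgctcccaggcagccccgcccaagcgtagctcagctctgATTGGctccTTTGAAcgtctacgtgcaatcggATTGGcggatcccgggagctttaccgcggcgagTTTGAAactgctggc
Cdc20: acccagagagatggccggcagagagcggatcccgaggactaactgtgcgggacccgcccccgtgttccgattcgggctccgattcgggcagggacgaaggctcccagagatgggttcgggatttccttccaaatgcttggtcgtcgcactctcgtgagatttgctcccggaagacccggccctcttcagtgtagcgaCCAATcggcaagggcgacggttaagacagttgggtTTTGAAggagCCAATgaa
Capitals mark the CCAAT box on either strand (ATTGG where it lies on the other one) and the homology core TTTGAA. Cdk1 holds 3 CCAAT boxes, 208, 80 and 48 bases before its start, and TTTGAA at 71 and 15 bases. Cdc20 holds CCAAT boxes at 53 and 8 bases and TTTGAA at 18 bases. Of all windows 16.0% hold TTTGAA and 33.8% hold CCAAT.

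Lipid synthesis genes made a small move in the same direction, with 6 of 18 sterol and fatty acid genes lower and 0 higher (median -0.27). Over all genes 8.12% were called lower. Without any 1 of the 8 libraries the list had 4 to 7 members called lower. With distal 12 day replicate 1 and distal 14 day replicate 4 both left out it had 3. Dhcr7, which makes the last step to cholesterol, had 748, 727, 695 and 950 at 14 days, against 1223, 1190, 1304 and 1152 at 12 days (log2 change -0.65 ± 0.15, adjusted p = 0.00337). Srebf2, the transcription factor of the pathway, had 3441, 3645, 3020 and 3291 at 14 days, against 4212, 4093, 4018 and 3875 at 12 days (log2 change -0.28 ± 0.07, adjusted p = 0.00707). Their groups did not overlap. Few endothelial, nerve or red cell markers were called. Of 14 endothelial genes limma called 0, with 5 at an unadjusted p under 0.05; all 14 had a positive change (median 0.35), and 5 were called without distal 14 day replicate 3. Pdgfrb, a receptor of pericytes and of connective tissue cells, had 2238, 2369, 2074 and 2428 at 14 days, against 1245, 1162, 1466 and 1317 at 12 days (log2 change 0.81 ± 0.10, adjusted p = 1.89e-05). Among 12 pericyte and smooth muscle genes 4 were called higher, Pdgfrb included, against 11.2% over all genes. That count was 1 without distal 12 day replicate 1 and 2 without distal 12 day replicate 3, distal 14 day replicate 1 or distal 14 day replicate 4. Red cell genes followed single libraries, with Hbb-bs, a beta globin, at 8049, 1963, 5082 and 269 at 14 days, against 1307, 719, 241 and 8564 at 12 days (log2 change 0.87 ± 1.42, adjusted p = 0.718), and of the 6 measured erythroid genes limma called 0, with 0 at an unadjusted p under 0.05. Among 13 Schwann cell and nerve genes Ncam1, an adhesion molecule, rose and Mbp, a myelin protein, fell, a share under the 19.4% called over all genes. The call of Ncam1 was lost without distal 12 day replicate 1 (adjusted p = 0.0581) and that of Mbp in 5 of the 8 fits without 1 library. As for lymphocytes, Ebf1, a B cell factor also made in connective tissue, was the 1 lymphocyte gene called higher. No gene was called by limma among 16 of hypoxia and glycolysis (0 at an unadjusted p under 0.05), 7 mitochondrial transcripts (1), 4 adipocyte genes (1), 4 muscle genes (1) or 3 melanocyte genes (0).

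The proximal libraries show whether a change between the days differed with the kind of amputation. The change at the distal cut differed from that at the proximal cut for 1760 of 15055 genes (11.7%), with 995 (6.61%) more positive at the distal cut and 765 (5.08%) more negative. Scaling to table totals gave 888 more positive and 432 more negative genes. Median-ratio factors gave 851 more positive and 877 more negative, so the excess turned with the scaling. On its own, the proximal comparison of 14 with 12 days called 2288 genes (15.2%), 7.35% higher and 7.84% lower. For fibrous matrix, 14 of 22 genes had a more positive distal change and 1, Lrrc15, a more negative one. Postn changed by 1.06 at the distal cut and -0.63 at the proximal cut, a difference of 1.70 ± 0.33 (adjusted p = 0.00220). Its means at the proximal cut were 30792 ± 6692 at 14 days and 47298 ± 7618 at 12 days (SD, n = 4 each), so at 12 days the proximal level was the higher one by far. C1qtnf3 changed by 2.17 at the distal cut and -1.35 at the proximal cut, a difference of 3.52 ± 0.46 (adjusted p = 7.04e-05). Bgn differed by 1.06 ± 0.12 (adjusted p = 2.12e-05), Hoxa13 by 1.41 ± 0.30 (adjusted p = 0.00405) and Prrx1 by 1.02 ± 0.14 (adjusted p = 9.86e-05). Of the 23 limb patterning genes 9 had a more positive distal change and 1, Dlx6, a more negative one.

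No osteoblast gene of the list differed between the cuts by the test. At the proximal cut 4 of the 16 were called higher too, against 7.35% over all genes. Bglap changed by 2.87 at the distal cut and 4.10 at the proximal cut, where its means were 774 ± 419 at 14 days and 56 ± 56.5 at 12 days (SD, n = 4 each), and the difference of -1.24 ± 1.20 (adjusted p = 0.563) was not called. For the 16 osteoblast genes limma called 0 differences, with 3 at an unadjusted p under 0.05, and the wide errors do not show that the rises were equal. Epidermal differentiation genes gave few called differences as well. Krt2 differed by -0.94 ± 0.58 (adjusted p = 0.324) and Hrnr by -0.27 ± 0.65 (adjusted p = 0.846), and of the 18 cornified envelope genes limma called 0, with 1 at an unadjusted p under 0.05. Of the 7 neutrophil genes 3 had a more negative distal change, against 5.08% over all genes. Il1b changed by -3.32 at the distal cut and 0.89 at the proximal cut, a difference of -4.21 ± 0.83 (adjusted p = 0.00249), and the proximal means were 21 ± 10.6 at 14 days and 10.2 ± 3.4 at 12 days (SD, n = 4 each). Nlrp3 differed by -2.91 ± 0.52 (adjusted p = 0.00120) and Cxcl1 by -2.80 ± 0.68 (adjusted p = 0.00984). Differences for Csf3r, at -2.48 ± 0.91 (adjusted p = 0.0809), and Il1rn, at -0.50 ± 0.25 (adjusted p = 0.212), were not called.

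Nail genes were not called at the distal cut but rose at the proximal one. Of 19 measured hard keratin and nail matrix genes limma called 0 between the distal groups, with 0 at an unadjusted p under 0.05. At the proximal cut 17 rose between 12 and 14 days, and 13 had a more negative distal change. Over all genes 7.35% rose at the proximal cut and 5.08% had a more negative distal change. Krt31, a hair and nail keratin whose reads may be shared with its close relatives, had 28688, 48984, 32828 and 52067 at 14 days, against 22674, 35404, 35765 and 35592 at 12 days (log2 change 0.31 ± 0.41, adjusted p = 0.651). Its proximal means were 43572 ± 15989.8 at 14 days and 4393 ± 3449 at 12 days (SD, n = 4 each), and the difference between the changes was -3.22 ± 0.58 (adjusted p = 0.00130). Keratin-associated proteins, which cross-link those keratins, behaved likewise, with 0 of 18 called by limma at the distal cut, 1 at an unadjusted p under 0.05, 18 higher at the proximal cut and 16 with a more negative distal change. Mki67 also parted, with a difference of -0.67 ± 0.19 (adjusted p = 0.0236) and proximal means of 4687 ± 418 at 14 days and 3872 ± 457 at 12 days (SD, n = 4 each). The proximal change of Mki67 was not called by limma (adjusted p = 0.171). Of 20 proliferation genes 1 had a more negative distal change, near the 5.08% over all genes, and of 20 replication genes 5 did.

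**Figure D4:**
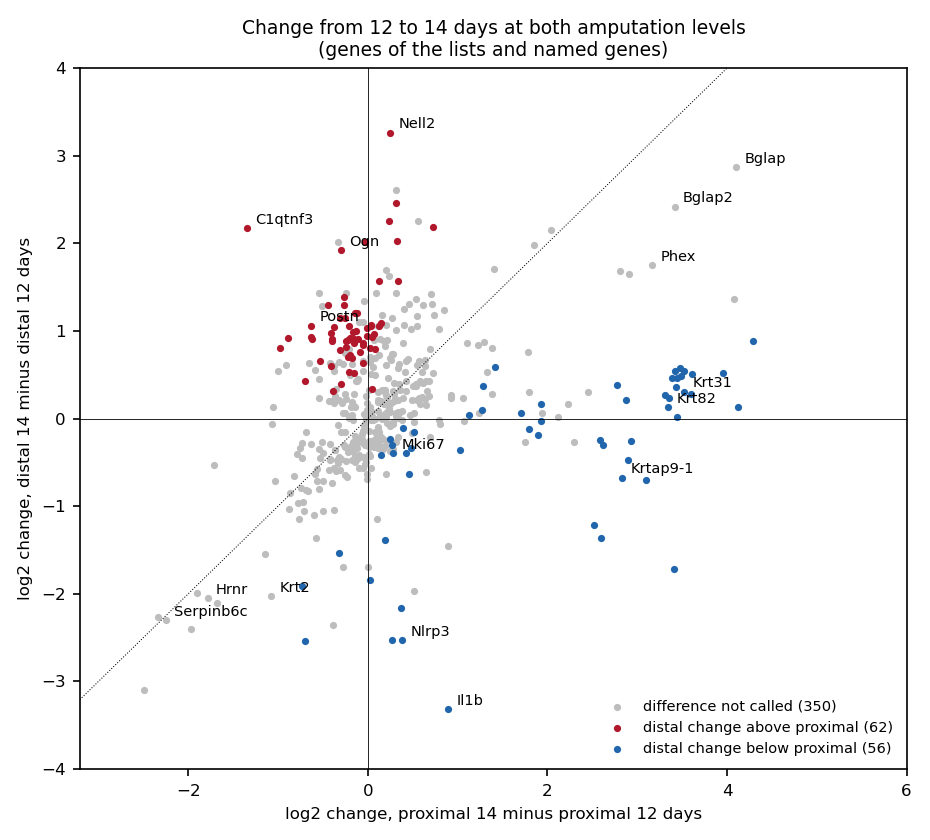
Each point is a listed or named gene, with its log2 change between 14 and 12 days after proximal amputation on the horizontal axis and after distal amputation on the vertical axis; the dotted line marks equal changes. Of the genes drawn, 62 had a more positive distal change (red), as Nell2 and C1qtnf3, and 56 a more negative one (blue), as Il1b and Krt31. The other 350 were not called (grey), and Bglap lies among the grey points at 2.87 and 4.10. Over all genes the shares were 6.61% more positive and 5.08% more negative. Many of the genes drawn were chosen with their distal change known.

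Levels at 21 days after distal amputation place both groups within the longer course. Postn averaged 15020 ± 2910.4 at 12 days, 31227 ± 5639 at 14 days and 11154 ± 3173 at 21 days. Bglap averaged 212 ± 190.3 at 12 days, 1075 ± 604 at 14 days and 139 ± 123 at 21 days, and Hoxa13 averaged 136 ± 54.2 at 12 days, 282 ± 15.9 at 14 days and 126 ± 20.8 at 21 days. Col11a1 had 3884 ± 1877 at 12 days, 10722 ± 2107 at 14 days and 2616 ± 305 at 21 days. For these 4 genes the 21 day mean lay under the 12 day mean. Il1b averaged 376 ± 149 at 12 days, 43.8 ± 32.9 at 14 days and 14 ± 3.92 at 21 days. Krt2, in contrast, averaged 227603 ± 22559 at 12 days, 63419 ± 40400.2 at 14 days and 117546 ± 70005 at 21 days, between its earlier levels. Mki67 averaged 6138 ± 814 at 12 days, 4664 ± 554 at 14 days and 3856 ± 621 at 21 days, the lowest of the 3 times at 21 days. The 21 day values are levels given for context, and the steps to that day were not tested here.

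**Figure D5:**
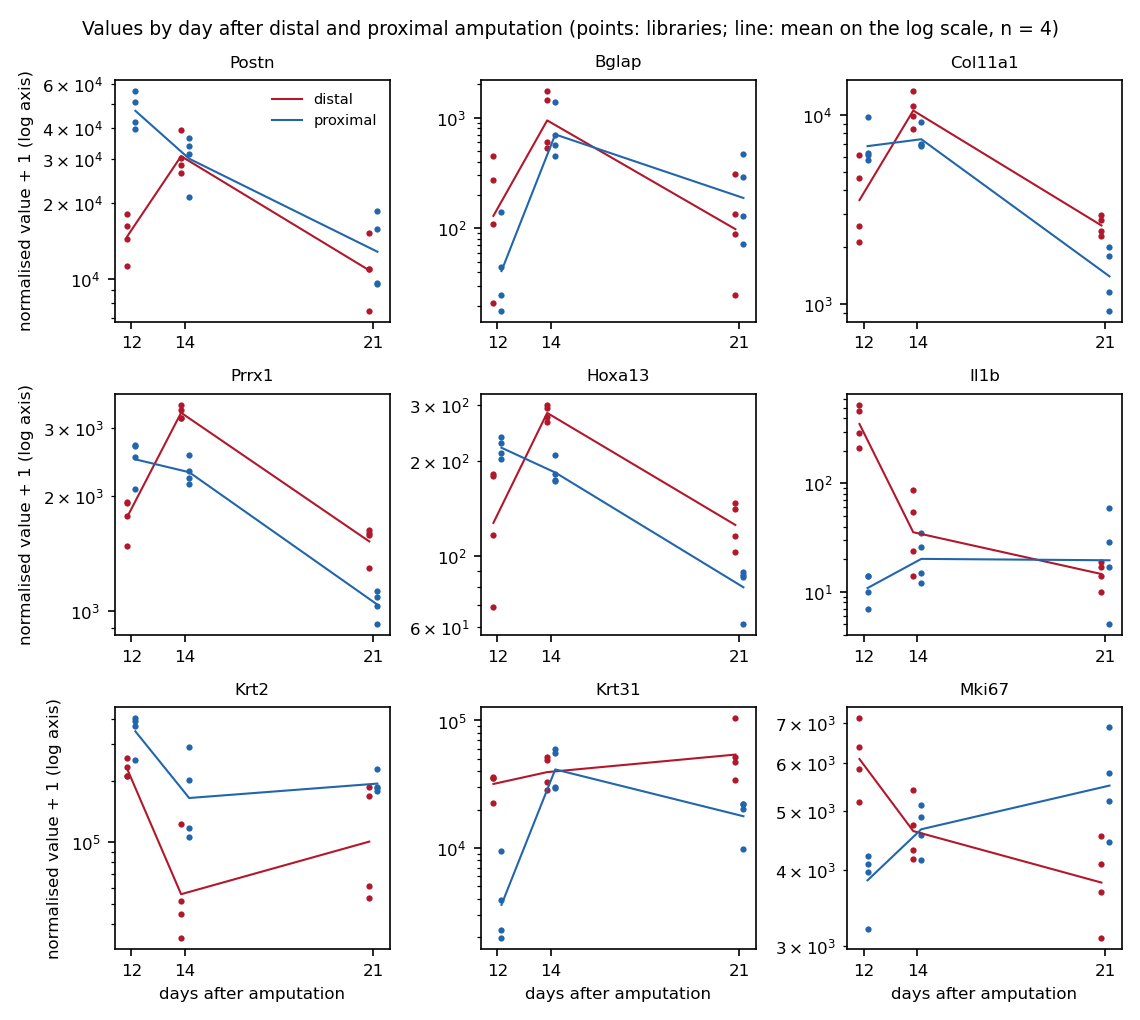
Normalised value plus 1 on a log axis against days after amputation for 9 genes, with a point per library, a line through the log-scale means (n = 4 each), distal in red and proximal in blue. Distal Postn, Bglap, Col11a1, Prrx1 and Hoxa13 are highest at 14 days, distal Il1b drops between 12 and 14 days, and proximal Krt31 is lowest at 12 days.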

How the data were processed

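Total RNA of mouse digit tips was depleted of ribosomal RNA (Ribo-Zero Gold) and sequenced, per the labels' protocols. The submitters' processing notes name cutadapt, STAR 2.5.4b, featureCounts 1.6.3 of Subread and the mm10 build, while the use of strand in counting is not stated there or in the labels. The authors deposited 1 table of whole numbers per gene and library, which is taken here as a score and not as a raw count, since a normalisation step before rounding is not recorded but shows in the values. Upper quartiles of the 24 libraries lay between 902.5 and 930.5, and along the direction of least spread over 9650 genes the libraries differed 6.71 times less than Poisson counting allows. Totals ran from 15264829 to 19351055, but depth is unknown, so no counting intervals are given.

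Values were tested as log2(value + 1) with limma 3.58.1 in R 4.3.3, with a mean for each of 6 groups over all 24 libraries, a trended prior and Benjamini-Hochberg adjustment over 15055 genes. Contrasts were distal 14 minus distal 12 days, and that change minus the proximal one. The fit was also run on simulated data with independent normal noise. That simulation holds neither the rounding nor the earlier normalisation of the values, so it cannot show how the test behaves under them. Errors are standard errors of the fit unless SD is given.

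Named genes were a panel of 12, the 12 largest called, non-overlapping rises and falls with a group mean of at least 50 (clone and accession names left out), up to 6 called members of each of 34 lists, and the 6 smallest adjusted p-values; list members were also named without a call. The members and lists were chosen with earlier results of these data known. Alternatives were 2 other scalings, 2 filters, 2 pseudocounts, limma-voom with quality weights, only the groups compared, the replicate number as a block, the least-spread direction as a covariate, and each library left out; leaving out 2 libraries together was chosen after seeing the data. Coordinates and promoters come from RefSeq on GRCm38.p6, the assembly that mm10 names; windows are the 250 bases before a gene's start. Markers missing from the table were not analysed here.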

Additional observations from a re-analysis of the deposited data

Results flagged for a closer look

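Within groups of 4, single libraries stood far from the other 3 in 15 of the 278 groups examined for the named genes, where chance alone sets apart about 1 group in 20 by the same measure (Dixon's ratio), or 13.9. Distal 14 day replicate 4 was high for the epidermal genes Krt1 (76603), Flg (51744) and Lce1a1 (3154) and for the sweat gland channel Aqp5 (611). Distal 14 day replicate 1 was high for Nell2 (223), Slc26a7 (388), Mkx (292) and the macrophage receptor Trem2 (114). Distal 14 day replicate 3 was low for the mitotic kinesin Kif20a (404) and high for Smad9 (144), a BMP signal transducer. Distal 12 day replicate 1 was low for Krt31 (22674) and Smo (1762), replicate 2 was high for Kirrel (1309), replicate 3 was high for Cenpf (2407), and replicate 4 was high for Ifit3 (21).

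The distal change differed from the proximal change for 57 of the 139 named genes by the interaction contrast in limma (adjusted p under 0.05). Over all genes the share was 11.7%. Most named genes were chosen for their distal change, which is part of that contrast, so the larger share is no finding of its own. Each value here is the log2 difference, distal change minus proximal change. Among these 57 each difference of a matrix or tendon gene was positive. Postn stood at 1.70, Thbs1 at 1.24, Thbs2 at 1.57, Tgfb3 at 1.74 and Col5a2 at 1.33. Ogn differed by 2.22, Omd by 1.71, Mkx by 1.02, Col12a1 by 1.43, Bgn by 1.06, Fmod by 0.92 and Scx by 0.74. Lrrc15, a fibrous matrix gene outside the 57, had a more negative distal change. The remodelling genes Mmp2, Mmp14 and Timp2 stood at 0.92, 1.09 and 0.84 in that order, and the cartilage genes Col11a1 at 1.45 and Comp at 1.46.

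Most called differences among signalling and patterning genes were positive, with 1 more negative member each in the Wnt (Tcf7), BMP (Bambi) and limb (Dlx6) lists. Of the Wnt genes, Wnt16 differed by 1.65, Nkd1 by 0.95, Lgr5 by 1.13, Dkk3 by 0.88, Wnt5a by 0.67 and Frzb by 2.15. Bmp4 differed by 0.78, and of the hedgehog genes Gli2 by 0.93, Ptch1 by 0.69 and Smo by 0.28. Hoxa13 stood at 1.41, Hoxd13 at 1.15 and Tbx4 at 0.90.

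The differences below 0 were as follows. Il1b differed by -4.21, Il11 by -1.84, Cxcl1 by -2.80, Nlrp3 by -2.91, Slfn4 by -2.53, Socs3 by -1.08, Cd14 by -1.58, Cxcr2 by -1.17 and Clec4d by -1.86. Fgfbp1 stood at -1.22, Krt6a at -1.39 and Krt31 at -3.22. Mki67 differed by -0.67 and Mcm6, a helicase subunit, by -0.57.

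The remaining genes with a called difference were positive. Nell2 differed by 3.01, Fam180a by 2.02, Galnt9 by 1.45, C1qtnf3 by 3.52 and Cacna1h by 2.05. Pdgfrb stood at 1.05, Bst2 at 1.05 and Ifit2 at 1.12. Of the genes with the smallest adjusted p, Mn1 differed by 1.03, Ttc28 by 0.72, Slc7a2 by 1.38, Scarf2 by 1.35 and Kirrel by 0.90.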

How the results depend on the processing

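Of 132 called named genes, 80 kept the call in every one of up to 19 alternatives, and none of the 132 changed sign; of the 7 not called, S100a8 and Lef1 did, with changes as low as -0.81 and -0.25. Without 1 of the 8 libraries at a time, 2213 to 2721 genes were called between the distal groups, 1324 to 1619 higher and 848 to 1113 lower; for the difference from the proximal change, leaving out 1 of 16 libraries at a time gave 1389 to 1776, 769 to 1014 more positive and 597 to 762 more negative. With distal 12 day replicate 1 and distal 14 day replicate 4 both left out (chosen after seeing the data) the distal comparison called 2061 genes, and the difference was called for 1172, of them 649 more positive; fewer libraries entered those fits. Scaled to table totals, the difference was more negative at the distal cut for 432 genes against 765 before, and more positive for 888 against 995; with median-ratio factors the split was 851 and 877. The medians of all genes for that difference were 0.03, 0.00 with median-ratio factors and 0.09 with table totals. Table totals gave 2419 called genes between the distal groups and median-ratio factors 2978, voom with quality weights 3139, the compared groups alone 2310 (with 22 named genes losing their call) and the least-spread direction as a covariate 2685. The filter on each gene's share of the table total left the counts as they were. The labels do not say whether replicate numbers pair the libraries. Deviations of same-numbered distal libraries correlated at r of -0.005, -0.033, 0.101 and 0.106, and those of differently numbered ones at -0.167 to 0.102. With the replicate number as a block 2871 genes were called, and 1654 for the difference, close to the counts without it. Precision is set by 4 libraries a group, and the unknown depth bars a limit from counting.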

Other observations

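All genes in these paragraphs were chosen after their values were seen. A run of small leucine-rich proteoglycan and matrix genes on chromosome 13 rose together. Ecm2, Aspn, Omd and Ogn lie between 49504810 and 49624501 of GRCm38.p6. Aspn, asporin, which binds collagen and TGF-beta, had 6981, 7544, 4203 and 5687 at 14 days, against 1374, 2204, 2076 and 1180 at 12 days (log2 change 1.85 ± 0.19, adjusted p = 2.4e-06). Ecm2 had 712, 471, 408 and 554 at 14 days, against 155, 303, 206 and 179 at 12 days (log2 change 1.36 ± 0.22, adjusted p = 0.000218). Neither overlapped, as Omd and Ogn did not. Mfap4 and Mfap5, proteins of elastic fibres, rose, with Mfap4 at 1097, 616, 585 and 896 at 14 days, against 412, 381, 408 and 336 at 12 days (log2 change 1.01 ± 0.23, adjusted p = 0.00384) and Mfap5 changed by 0.91 ± 0.21 on the log2 scale (adjusted p = 0.00378). Col8a2, a network collagen, had 4377, 3130, 2311 and 2758 at 14 days, against 616, 1195, 928 and 617 at 12 days (log2 change 1.92 ± 0.28, adjusted p = 8.62e-05), with the lowest 14 day library near 2 times the highest 12 day one. Itm2a, a membrane protein of the cartilage lineage, had 742, 1182, 807 and 668 at 14 days, against 179, 357, 349 and 157 at 12 days (log2 change 1.76 ± 0.26, adjusted p = 7.29e-05), and Itga10, a collagen-binding integrin of chondrocytes, changed by 1.77 ± 0.43 on the log2 scale (adjusted p = 0.00584), with its lowest value, 21, in distal 12 day replicate 1.

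Ereg and Areg, both ligands of the EGF receptor, fell. Ereg, epiregulin, had 521, 326, 372 and 693 at 14 days, against 1054, 2588, 1694 and 1647 at 12 days (log2 change -1.86 ± 0.26, adjusted p = 5.51e-05), and Areg, amphiregulin, its neighbour on chromosome 5, had 16, 27, 5 and 19 at 14 days, against 36, 48, 89 and 41 at 12 days (log2 change -1.73 ± 0.47, adjusted p = 0.0118). The groups of both were apart. Hdc, which makes histamine, had 66, 97, 78 and 57 at 14 days, against 208, 257, 409 and 195 at 12 days (log2 change -1.79 ± 0.27, adjusted p = 0.000113), and its distal change lay 3.44 below the proximal one on the log2 scale. Ptgs2, the inducible cyclooxygenase, changed by -1.34 ± 0.35 on the log2 scale (adjusted p = 0.0103) and Tnf by -1.30 ± 0.41 on the log2 scale (adjusted p = 0.0284). Secreted epidermal proteins Slurp1 and Slurp2 fell, Slurp1 with 542, 321, 323 and 883 at 14 days, against 978, 2366, 1994 and 1419 at 12 days (log2 change -1.76 ± 0.30, adjusted p = 0.000367). Krt24, a keratin of differentiated keratinocytes, had 5773, 8493, 10326 and 12060 at 14 days, against 27384, 28959, 28244 and 29522 at 12 days (log2 change -1.69 ± 0.28, adjusted p = 0.000278), and its 12 day libraries lay within a narrow band. Krt9, the keratin of palm and sole skin, had the lowest fitted change of all genes named here, with 18, 407, 142 and 69 at 14 days, against 4724, 119, 1882 and 8779 at 12 days (log2 change -4.22 ± 1.38, adjusted p = 0.0349), but distal 12 day replicate 2 lay inside the 14 day range.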
